A study of Mus musculus with 7 samples.

Results

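The immature neuron growth and cytoskeleton genes are 10 genes named for what their proteins do: Gap43, Tubb3, Gng8, Stmn1, Stmn2, Stmn3, Stmn4, Ncam1, Ncam2 and Crmp1. They are 10 of the 21887 protein-coding genes placed on the mouse genome (GRCm38). Each gene was read over its body with 10 kb on each side. The 2 marks on lysine 27 of histone H3, trimethylation (H3K27me3) and acetylation (H3K27ac), were mapped by ChIP-seq, the sequencing of immunoprecipitated chromatin, with 2 libraries for each mark and 3 input libraries. The starting material was olfactory mucosa of adult wild-type mice, taken 7 to 10 days after methimazole was given as a lesion (the compound destroys most of the epithelium, which then regrows). Cells of 3 mice were pooled for every immunoprecipitation, and cells labelled as globose basal cells were pulled out with an antibody to c-Kit and magnetic beads. All libraries share this genotype, lesion and selection, so there is no unlesioned group and no comparison between conditions.

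Globose basal cells are the dividing progenitors that renew olfactory sensory neurons. The 10 genes are listed for the stage after division, when a young neuron extends its axon toward the olfactory bulb. Stmn1 is also found in dividing cells. Growing axons depend on microtubules made of tubulin, on stathmins that bind free tubulin and loosen microtubules, on adhesion molecules that hold axons together, and on proteins that relay guidance cues inside the growth cone. H3K27ac is found at active promoters and enhancers, whereas H3K27me3 is deposited by the Polycomb repressive complex.

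The 4 peak lists were called by the authors, 1 for each immunoprecipitated library. Each peak has a fold enrichment, the ratio of its signal to background, and a −log10 q, where q is the false discovery rate. The smallest −log10 q was between 1.00 and 1.01 in every list. The lists held 77680 and 64279 peaks for H3K27ac (replicates 1 and 2) and 95749 and 65172 for H3K27me3. Few H3K27me3 peaks were strong: 5.89% and 2.34% of them had a −log10 q of 5 or more, against 31.1% and 18.8% for H3K27ac. Read totals are not in the lists, so depth is unknown, and fold enrichment was not compared between marks or libraries as a level. The labels name a common input for H3K27ac replicate 2 and H3K27me3 replicate 1. Of the 8 globose basal cell markers, 8 had H3K27ac at their start in both libraries and 6 had H3K27me3; of the 5 mast cell markers, which belong to another c-Kit positive cell, 0 had H3K27ac, and the same was so for the 4 leukocyte markers. H3K27ac was at the start of 3 of 6 mature olfactory neuron markers (Omp, Adcy3 and Cnga2), 3 of 4 sustentacular cell markers and 1 of 4 horizontal basal cell markers. Of all protein-coding genes, 61.5% had H3K27ac there in both libraries and 26.7% had H3K27me3, and these small counts are to be read beside those shares. Some markers of other epithelial cells were thus acetylated in these lists. The part of such cells in the values of the 10 genes was not tested. In such pooled cells, a mark on few cells and a weak mark on many cells cannot be told apart, nor can 2 marks on the same cells and on different cells.

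Gene starts were taken from the RefSeq promoter table (build GRCm38.p6), which lists 6 starts for 5 of the genes: Tubb3, Gng8, Stmn3, Ncam2 and, with 2 starts, Crmp1. Gap43, Stmn1, Stmn2, Stmn4 and Ncam1 are not listed, and both ends of these genes were read. All 6 starts had peaks of both marks on or within 1 kb of them. At the Gng8 start, only 45 bp of this H3K27me3 were common to both libraries. Of all protein-coding genes, 16.3% had both marks within 1 kb of a listed start, or of either end where none is listed. The share over listed starts alone was not computed. The Gng8 stretch was analysed but is not printed, because its listed start lies 0.049 kb inside the annotated gene. The 250 bases before the other 5 listed starts are shown, since they differ widely in CpG content. They are written 5′ to 3′ on the strand of the gene, with every CpG in capitals.
Tubb3, chr8:123411303-123411552 (+ strand): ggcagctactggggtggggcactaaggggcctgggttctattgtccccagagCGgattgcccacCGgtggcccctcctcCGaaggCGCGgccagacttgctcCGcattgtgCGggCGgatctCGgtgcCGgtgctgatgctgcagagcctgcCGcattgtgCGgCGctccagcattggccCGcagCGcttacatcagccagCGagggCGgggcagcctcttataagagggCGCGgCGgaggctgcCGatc
Stmn3, chr2:181314501-181314750 (− strand): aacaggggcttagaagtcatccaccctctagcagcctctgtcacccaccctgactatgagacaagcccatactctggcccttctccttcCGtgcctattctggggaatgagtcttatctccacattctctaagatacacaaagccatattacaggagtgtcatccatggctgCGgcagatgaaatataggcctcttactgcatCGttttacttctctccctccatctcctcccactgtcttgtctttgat
Ncam2, chr16:81200447-81200696 (+ strand): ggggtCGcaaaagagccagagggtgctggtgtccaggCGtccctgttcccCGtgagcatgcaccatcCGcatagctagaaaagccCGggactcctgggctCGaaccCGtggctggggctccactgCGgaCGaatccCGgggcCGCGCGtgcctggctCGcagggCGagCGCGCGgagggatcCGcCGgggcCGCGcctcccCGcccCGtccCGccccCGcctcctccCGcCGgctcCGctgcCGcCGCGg
Crmp1, the first listed start, chr5:37241808-37242057 (+ strand): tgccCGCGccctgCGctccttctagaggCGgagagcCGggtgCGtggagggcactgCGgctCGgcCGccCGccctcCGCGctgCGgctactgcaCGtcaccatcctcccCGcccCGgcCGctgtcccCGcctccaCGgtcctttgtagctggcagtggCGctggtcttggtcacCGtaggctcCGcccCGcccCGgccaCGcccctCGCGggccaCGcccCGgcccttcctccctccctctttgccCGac
Crmp1, the second listed start, chr5:37245514-37245763 (+ strand): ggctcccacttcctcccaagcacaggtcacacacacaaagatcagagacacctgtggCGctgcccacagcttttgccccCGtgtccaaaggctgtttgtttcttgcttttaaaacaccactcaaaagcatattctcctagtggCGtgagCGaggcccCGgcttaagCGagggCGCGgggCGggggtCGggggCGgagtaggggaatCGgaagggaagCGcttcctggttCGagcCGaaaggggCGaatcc

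Ncam2 and the first listed start of Crmp1 were dense in CpG, with 32 and 30 in 250 bases, more than 94.1% and 92.3% of 21263 such stretches before listed starts of protein-coding genes. Tubb3 had 21 and the second Crmp1 start 16. Gng8 and Stmn3 were sparse, with 4 and 3, against a median of 10 over all listed starts. Tubb3 had peaks of all 4 libraries over all 250 bases, and Ncam2 had them over 226 to 250 bases. At the first Crmp1 start both H3K27me3 lists covered all 250 bases, and H3K27ac covered 250 and 124 bases. At the second Crmp1 start H3K27me3 again covered 250 bases in both lists, while H3K27ac covered 250 bases in replicate 1 and 0 in replicate 2, whose peak began just past the start. The CpG-sparse pair had H3K27me3 over these bases in only 1 list each: in Gng8 250 bases in replicate 1 and 0 in replicate 2, and in Stmn3 the reverse, 0 and 250. Over all listed starts, H3K27me3 of both lists touched 5.84% of the 6166 stretches with 0 to 3 CpG, the class of Stmn3, and 22.8% of the 4994 with 4 to 10, the class of Gng8. It touched 22.1% of those with 11 to 19 and 21.3% of those with 20 to 56. H3K27ac touched 9.75%, 46.9%, 83.5% and 91.2% of the same classes.

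These 3 short motifs were searched on both strands of the 6 stretches, and none overlapped another: CAGATG, an E-box form bound by neurogenic factors such as Neurog1 and Neurod1; CCCNNGGG, the core of the site of Ebf factors; and TATAAA. The only match was CAGATG in Stmn3, which starts 75 bases before the gene start. These letters occur in 12.4% of all listed stretches, CCCNNGGG in 13.5% and TATAAA in 11.6%.

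H3K27ac was present over all 10 genes in both libraries, and H3K27me3 over 9, all but Gap43. Over all protein-coding genes with the same 10 kb flanks, 72.1% had H3K27ac in both libraries, 53.8% had H3K27me3 and 43.6% had both marks, which 9 of the 10 genes had. These shares differ with gene length. With all genes put into 10 classes by length, 8.22% of the shortest class had both marks and 67.0% of the longest, which holds Ncam1 and Ncam2. The classes between had 36.3% to 54.2%. Within 1 kb of a listed start, or of either gene end where no start is listed, 10 genes had H3K27ac, 8 had H3K27me3 and 8 had both. The shares of all genes there were 61.5%, 26.7% and 16.3%. Gap43 and Stmn1 lacked the replicated H3K27me3 peak. In replicate 1 alone all 10 genes had an H3K27me3 peak at this place, as did 43.1% of all genes, and in replicate 2 alone 8 had one, against 29.3%. With peaks of −log10 q of 2 or more, 6 genes had both marks at this place against 7.59% of all genes, and Gng8 and Ncam2 were lost. With 5 or more, 0 had them, near the 0.384% of all genes. In H3K27me3 replicate 1 alone, Crmp1, Stmn3 and Ncam1 had peaks past that value at this place, with −log10 q of 10.2, 7.14 and 5.58. The share of all genes for this list alone was not computed, so these genes cannot be set beside the 0.384%. Of all peaks of that list, 5.89% passed the value.

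**Figure D1:**
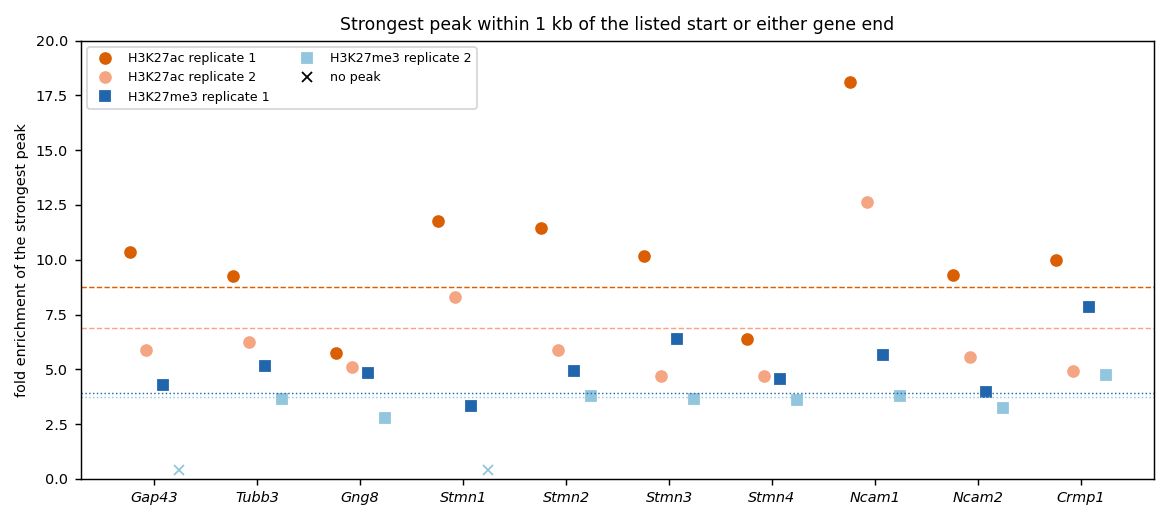
Fold enrichment of the strongest peak within 1 kb of a listed start or either gene end (vertical axis, linear) for the 10 genes, with 1 point for each library and a cross, placed near 0, where there was no peak. Dashed (H3K27ac) and dotted (H3K27me3) lines are medians of all protein-coding genes with a peak there; Ncam1 stands highest in H3K27ac at 18.1 and 12.6, Crmp1 highest in H3K27me3 at 7.86 and 4.72, and Gap43 and Stmn1 have no H3K27me3 peak in replicate 2.

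The plot of strongest peaks shows the order of the genes within each list. The median fold of the 10 genes for H3K27ac was 10.1 in replicate 1, where all genes with a peak had 8.78, and 5.72 in replicate 2, where they had 6.89. For H3K27me3 the medians were 4.89 against 3.91 in replicate 1 and, over the 8 genes with a peak, 3.66 against 3.74 in replicate 2. The medians of these genes thus lay above the general median in both replicate 1 lists and below it in both replicate 2 lists. No direction of the median held across the replicates of either mark. For single genes it could: Ncam1 and Stmn1 were above the general H3K27ac median in both libraries, and Gng8 and Stmn4 below it in both. Crmp1, Stmn2 and Ncam1 were above the general H3K27me3 median in both libraries.

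Gap43 encodes growth-associated protein 43, a phosphoprotein of the inner face of the growth cone membrane and a customary marker of immature olfactory neurons. It lies on chromosome 16 from 42248552 to 42340651 (gene ID 14432), and it was the only one of the 10 genes without a replicated H3K27me3 peak anywhere in its window. H3K27ac at its higher-coordinate end had a fold of 10.3 in replicate 1 and 5.87 in replicate 2. H3K27me3 had a peak of 4.27 at the same end in replicate 1 and none in replicate 2. Replicate 1 held 3 H3K27me3 peaks in the window, 1.79 kb in all, and replicate 2 held 0. Another 3 replicated H3K27ac regions lay inside the gene, beginning 26.99, 57.4 and 88.1 kb from its lower-coordinate end. The region at 26.99 kb rested on a weak replicate 2 peak, with a fold of 2.75 and a −log10 q of 1.06. The region at 88.1 kb was not separate in replicate 2, where a single 4.14 kb peak covered it and the higher-coordinate end. The microRNA gene Mir6540 lies within Gap43, 54.8 kb from the lower-coordinate end, and an H3K27ac peak met it in replicate 1 only.

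Tubb3 encodes class III beta-tubulin, the tubulin used as a general marker of neurons. It lies on chromosome 8 from 123411553 to 123422015 (gene ID 22152). The strongest H3K27ac peaks at its start had folds of 9.28 and 6.23, and those of H3K27me3 5.14 and 3.66. The peaks were wide in all 4 libraries, 5.13 and 4.30 kb for H3K27ac and 7.24 and 8.06 kb for H3K27me3. Over the start, 3825 bp lay under peaks of all 4 libraries, 88.9% of the replicated H3K27ac of the gene. H3K27me3 reached farther upstream than H3K27ac, beginning at −4.24 kb from the start against −1.58 kb, and so across most of Mc1r, the melanocortin 1 receptor gene, which ends 809 bp before Tubb3. A further H3K27me3 region, from −5.82 to −5.20 kb, lies beyond Mc1r, between it and Tcf25. Tubb3 thus had the longest stretch of both marks of the 10 genes, in bases it partly shares with a neighbour.

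Gng8 encodes the gamma 8 subunit of heterotrimeric G proteins, known from developing olfactory and vomeronasal neurons. It is the shortest of the genes, on chromosome 7 from 16891737 to 16895451 (gene ID 14709). H3K27ac covered it from end to end with folds of 5.76 and 5.10, and H3K27me3 did so in replicate 1 with 4.84. In replicate 2 the H3K27me3 peak near the start was 225 bp wide with a fold of 2.78, above only 1.92% of genes with such a peak, and a separate peak of 3.98 lay at the other end. Only 45 bp of H3K27me3 near the start were common to both libraries, whereas 1798 bp were common at the other end. The mark was therefore replicated over the last part of the gene and barely at its start. Dact3, which encodes a regulator of Wnt signalling, ends 4436 bp before Gng8, and the 2658 bp H3K27me3 region from −7.58 to −4.93 kb relative to Gng8 lies within Dact3.

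**Figure D2:**
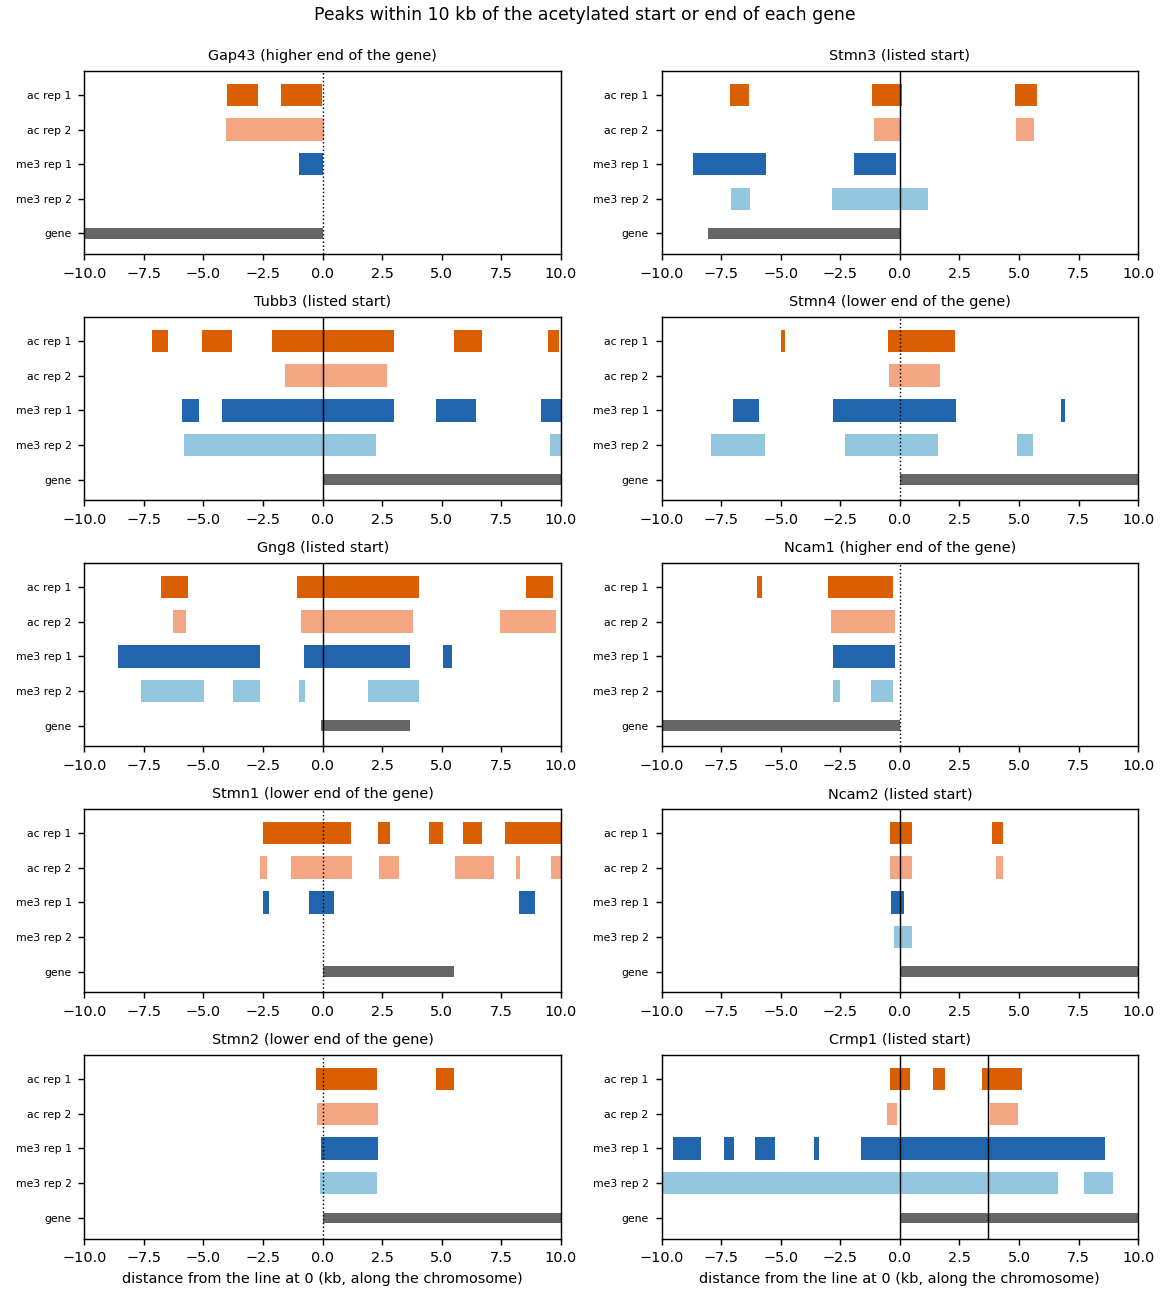
Peaks of each library as bars along the chromosome, in kb from a line at 0, which is solid at a listed start and dotted at the gene end with the higher H3K27ac fold where no start is listed; the grey bar is the gene, and Crmp1 has a second line at 3.71 kb. Stmn2 has peaks of nearly the same extent in all 4 libraries, Tubb3 and Crmp1 have H3K27me3 wider than H3K27ac, and Gap43 and Stmn1 have no H3K27me3 replicate 2 bar within the 10 kb shown.

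The 4 stathmins bind tubulin dimers and favour microtubule disassembly. Stmn1 is the form found in most dividing cells, and the other 3 are largely neuronal and held on membranes. Their marks followed 2 layouts. Stmn1 had strong H3K27ac and no replicated H3K27me3 on the gene, and Stmn2, Stmn3 and Stmn4 had both marks over the same place.

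Stmn1 (chromosome 4, 134468320 to 134473843, gene ID 16765) had H3K27ac folds of 11.8 and 8.31 at its lower-coordinate end, the second highest of the 10 genes in both libraries. H3K27me3 there was 3.32 in replicate 1, the lowest of the 10, and had no peak in replicate 2. The replicated H3K27ac was split into 7 regions over the gene and its flanks, 5.10 kb in all, and 99.4% of genes of like length (the genes were put into 10 classes by length) had fewer regions. The only replicated H3K27me3 of its window, 0.535 kb of it inside the window, began 13.97 kb from the lower end, in the flank past the gene.

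Stmn2 (chromosome 3, 8509527 to 8561604, gene ID 20257) encodes SCG10, a stathmin of growth cones. At its lower-coordinate end H3K27ac had folds of 11.5 and 5.90 and H3K27me3 4.94 and 3.79. The 4 peaks covered nearly the same bases: their widths were 2.57, 2.57, 2.39 and 2.39 kb, their lower boundaries lay within 202 bp and their upper boundaries within 49 bp of each other. All 2357 bp of its replicated H3K27me3 were also under H3K27ac, and nothing else in the 72.1 kb window was replicated for either mark. Of all protein-coding genes, 73 had the strongest peaks of all 4 libraries with both boundaries within 250 bp, which is 0.334% of the genes tested and 2.13% of the 3429 genes with peaks of all 4 libraries in 1 window. That rule was chosen after the values of Stmn2 were seen, and it describes the gene without testing it. Stmn2 was the only one of the 10 to meet it, and Ncam2 came closest with 201 and 327 bp.

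Stmn3 (chromosome 2, 181306459 to 181314500, reverse strand, gene ID 20262) had H3K27ac folds of 10.2 and 4.71 at its start and H3K27me3 folds of 6.37 and 3.65. Its H3K27ac was above that of 60.2% and 24.7% of genes with a peak, and its H3K27me3 above 81.7% and 46.2%, so its rank differed between the replicates of each mark. This was not particular to Stmn3: the median percentile of the listed genes was 59.5 and 36.5 for H3K27ac, and 68.4 and 46.3 for H3K27me3. The 906 bp under both marks lay inside Stmn3, just past the start, and not on the CpG-sparse bases shown above for this gene. A second replicated H3K27ac region met the near end of Rtel1, a DNA helicase gene 5211 bp away.

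Stmn4 (chromosome 14, 66344210 to 66361680, gene ID 56471) had the lowest H3K27ac of the 4 stathmins, with folds of 6.40 and 4.68 at its lower-coordinate end. H3K27me3 there was 4.54 and 3.61, in peaks of 5.15 and 3.88 kb against 2.77 and 2.14 kb for H3K27ac. Of its replicated H3K27ac, 95.9% lay under H3K27me3, and of its replicated H3K27me3, 41.3% lay under H3K27ac. Replicated H3K27me3 thus covered most of the H3K27ac at this gene and reached farther on the lower-coordinate side. On the other side H3K27ac ended slightly past it, at 1.68 kb from the lower end against 1.59 kb. H3K27me3 also extended over Gm41183, a long non-coding RNA gene that ends 481 bp away.

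Ncam1 and Ncam2 encode neural cell adhesion molecules of the immunoglobulin family, which bind their like on neighbouring axons. Both genes are long, and in each the marks met at 1 end of the gene. Ncam1 (chromosome 9, 49502129 to 49799393, gene ID 17967) had the highest H3K27ac of the 10 genes in both libraries, with folds of 18.1 and 12.6 at its higher-coordinate end, above 93.2% and 90.8% of genes with a peak. H3K27me3 there was 5.66 and 3.79. The H3K27me3 peak was 2.62 kb wide in replicate 1 and 0.841 kb in replicate 2, with a second small piece, so that 1.07 kb lay under both marks.

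Ncam1 also had a run of H3K27ac inside the gene. Another 10 replicated regions, 6.92 kb in all, lay 212.1 to 256.7 kb from its lower-coordinate end, and none of these held replicated H3K27me3. Their peaks had folds of 3.82 to 10.7 in replicate 1 and 3.10 to 7.72 in replicate 2. The 11 H3K27ac regions of Ncam1 compare with a median of 3 in genes of its length class, of which 80.0% had fewer. The non-coding RNA gene Gm11149 lies within Ncam1 at 16.2 to 65.9 kb, where 243 bp of replicated H3K27me3 and no replicated H3K27ac were found.

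Ncam2 (chromosome 16, 81200697 to 81624290, gene ID 17968), also called OCAM, is known from the axons of olfactory and vomeronasal neurons. It is the longest of the 10 genes, and replicated H3K27ac covered 0.384% of its window, the smallest share of the 10. H3K27ac folds at its start were 9.30 and 5.57, and those of H3K27me3 3.95 and 3.24. The peaks were narrow, 0.939 and 0.910 kb for H3K27ac and 0.573 and 0.717 kb for H3K27me3, and all 411 bp of replicated H3K27me3 lay inside H3K27ac over the CpG-dense start. Each H3K27me3 list had this 1 peak in the 443.6 kb window. Another 3 replicated H3K27ac regions lay in the gene, at 4.04, 149.8 and 151.4 kb from the start.

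**Figure D3:**
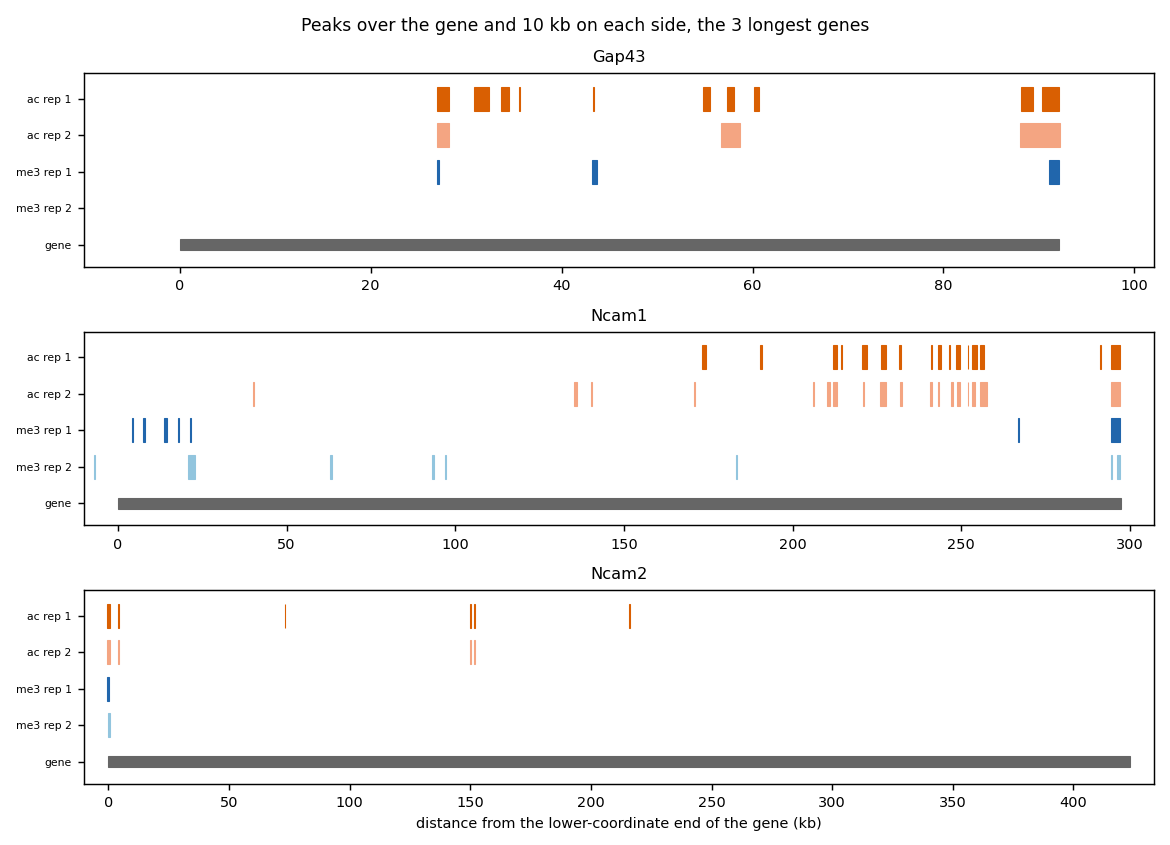
Peaks of each library as bars over Gap43, Ncam1 and Ncam2 with 10 kb on each side, in kb from the lower-coordinate end of the gene (grey bar). Ncam1 shows the run of H3K27ac at 212.1 to 256.7 kb in both libraries and H3K27me3 at its higher-coordinate end, and Ncam2 has H3K27me3 at its start only.

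Crmp1 encodes collapsin response mediator protein 1, which carries semaphorin 3A signals to the cytoskeleton of the growth cone. It lies on chromosome 5 from 37242058 to 37292163 (gene ID 12933). A single H3K27me3 peak spanned both listed starts in each library, 10.2 kb wide with a fold of 7.86 in replicate 1 and 20.5 kb wide with 4.72 in replicate 2. These were the highest H3K27me3 folds of the 10 genes in both libraries, above 89.6% and 75.6% of genes with a peak. H3K27ac differed between the starts: at the first it was 3.96 and 3.64, and at the second, 3.71 kb farther on, it was 10.0 and 4.93. The second start thus had the higher H3K27ac fold in both libraries, within the same H3K27me3 domain and with fewer CpG.

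All 1.485 kb of replicated H3K27ac at Crmp1 lay under H3K27me3, which covered 13.9 kb in 13 regions. The largest of these regions measured 8246 bp, and 95.3% of genes in the same length class had less of their window covered. Its window holds 3 neighbours: Gm1043 before the gene, Evc, which overlaps its far end, and the pseudogene Gm42935. Peaks in those parts cannot be assigned to one gene or the other.

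**Figure D4:**
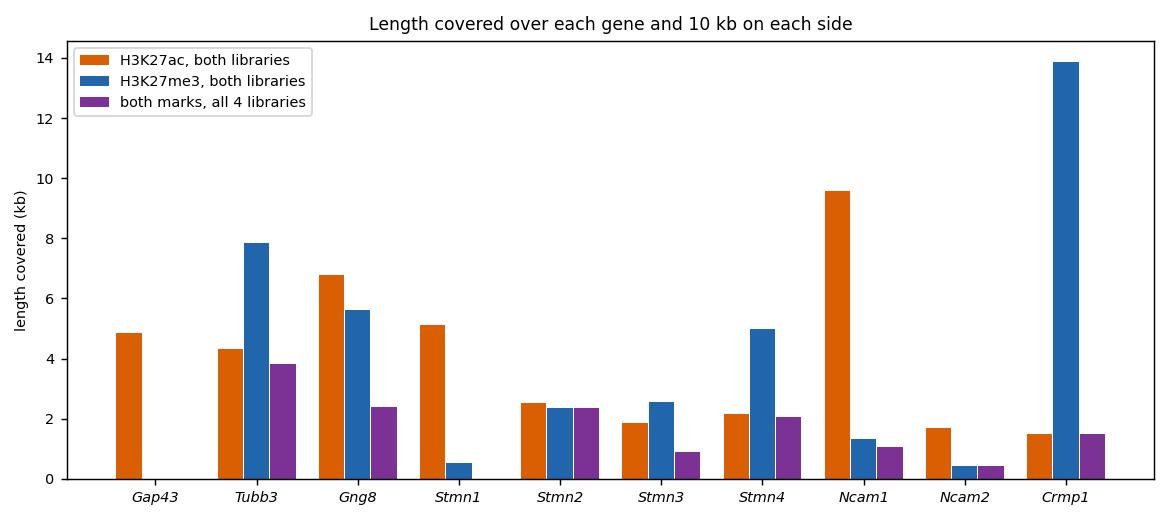
Length in kb (vertical axis) over each gene and 10 kb on each side covered by peaks of both H3K27ac libraries, of both H3K27me3 libraries, and of all 4 libraries. Crmp1 has the most H3K27me3 (13.9 kb) and Ncam1 the most H3K27ac (9.57 kb), while Gap43 and Stmn1 have no bases under both marks.

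Summed over the 10 windows, replicated H3K27me3 covered 39.5 kb, replicated H3K27ac 40.3 kb and both marks 14.5 kb. Crmp1 (13.9 kb), Tubb3 (7.85 kb), Gng8 (5.63 kb) and Stmn4 (4.98 kb) held most of the H3K27me3, and Gap43 held none. Ncam1 had the most H3K27ac, 9.57 kb in both libraries together and 15.2 and 14.5 kb in each. Gng8 followed with 6.78 kb, but in replicate 1 alone Stmn1 (9.72 kb), Gap43 (8.94 kb) and Tubb3 (8.69 kb) exceeded its 8.03 kb. The H3K27me3 lengths also depended on the library: replicates 1 and 2 alone gave 20.7 and 24.3 kb at Crmp1, 11.7 and 6.15 kb at Gng8, 5.0 and 5.23 kb at Ncam1, and 3.53 and 0.535 kb at Stmn1. Of the H3K27me3 of the 10 genes, 36.7% was also under H3K27ac, against 14.6% in the windows of all protein-coding genes, and of the H3K27ac 35.9% was also under H3K27me3, against 9.30%. These shares are descriptions, since neighbouring bases of a peak are not independent and the 10 genes were not compared with other lists.

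At the start or end where both marks met, the 8 genes with both marks all had bases common to the 4 libraries, with a median of 953 bp. Of the 3572 protein-coding genes with both marks at this place, 3212 (89.9%) had such bases, with a median of 674 bp. A peak of these genes was found in both lists of its mark for 59.3% and 84.1% of H3K27ac peaks (replicates 1 and 2) and for 51.0% and 71.4% of H3K27me3 peaks. The shares over all peaks were 60.1% and 75.4%, and 42.1% and 57.0%.

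A list of 45 genes related by family or role gives the setting of the 10. Of these, 37 had H3K27ac, 28 had H3K27me3 and 22 had both marks at a listed start or either end, to be read beside the 61.5%, 26.7% and 16.3% of all genes. H3K27ac without H3K27me3 was found at 15, the reverse at 6 and neither at 2.

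Among 8 tubulins, 6 had H3K27ac and 3 had H3K27me3. Tubb2b, a beta-tubulin of developing neurons, had both, with folds of 13.2 and 10.8 for H3K27ac and 3.83 and 3.45 for H3K27me3. Tubb2a had H3K27ac alone (8.54 and 5.87), Tubb4a had H3K27me3 in both libraries (5.93 and 4.23) with H3K27ac in replicate 1 only, and Tubb1, the platelet form, had neither in both libraries. The tubulin genes differed among themselves, and 2 of the 8 had both marks, as Tubb3 did.

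All 6 genes of microtubule-associated proteins had H3K27ac and 3 had H3K27me3. Map1b had H3K27ac folds of 18.2 and 9.53 with H3K27me3 of 3.59 and 3.47. Map2 (6.11 and 6.55) and Mapt (4.91 and 4.09) had replicated H3K27ac and H3K27me3 in 1 library each. Dcx, which encodes doublecortin of migrating young neurons, had H3K27ac of 3.68 and 3.88.

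The 4 other collapsin response mediator genes, Dpysl2 to Dpysl5, all had H3K27me3, as Crmp1 did. Their H3K27me3 folds were 8.24 and 4.96 in Dpysl2, 7.95 and 5.51 in Dpysl3, 6.62 and 5.38 in Dpysl4, and 5.39 and 5.41 in Dpysl5. Replicated H3K27ac was found at 3 of them, at 3.00 and 2.75 in Dpysl2, 3.75 and 2.96 in Dpysl3 and 8.67 and 5.32 in Dpysl5. The whole family thus carried H3K27me3, and Crmp1 and Dpysl5 had the higher H3K27ac.

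Of the 4 growth cone membrane genes, which encode proteins of the same kind as Gap43, all had H3K27ac, and Basp1 and Gprin1 had H3K27me3. Marcks had H3K27ac of 14.2 and 9.87 and no H3K27me3 peak in either library. Marcksl1 had 9.65 and 6.20 with H3K27me3 in replicate 1 only, the same layout as Gap43 within 1 kb of a start or end. Over the gene with 10 kb on each side, Marcksl1 had H3K27me3 in both libraries and Gap43 did not. Basp1 had 15.2 and 9.30 with H3K27me3 of 4.62 and 2.99.

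Of 7 immunoglobulin adhesion genes, 5 had each mark and 3 had both. L1cam had H3K27ac of 7.83 and 4.94 and H3K27me3 in replicate 1 only. Chl1 had both marks, with 4.07 and 3.41 for H3K27ac and 3.66 and 3.34 for H3K27me3, as had Nrcam, with 6.64 and 3.87 and with 5.24 and 3.80. Nfasc had replicated H3K27me3 (3.04 and 3.11) and H3K27ac in 1 library. The H3K27ac folds of the named adhesion genes were below those of Ncam1 and Ncam2 in both libraries.

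All 3 genes of growth cone actin proteins, Fscn1, Dbn1 and Ablim1, had both marks, with H3K27ac folds of 6.96 to 7.66 in replicate 1 and 5.29 to 5.99 in replicate 2. Of 11 G protein gamma genes, 10 had H3K27ac and 6 also had H3K27me3. Gng3 and Gng5 had H3K27ac alone, at 8.06 and 6.59 and at 22.5 and 11.8, whereas Gng2 and Gng4 had both marks, as Gng8 did. The neurofilament genes Nefl and Nefm, which belong to mature axons, had H3K27me3 of 10.4 and 7.36 and of 9.58 and 6.05, with no replicated H3K27ac. Both had higher H3K27me3 folds than any of the 10 genes in both libraries.

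**Figure D5:**
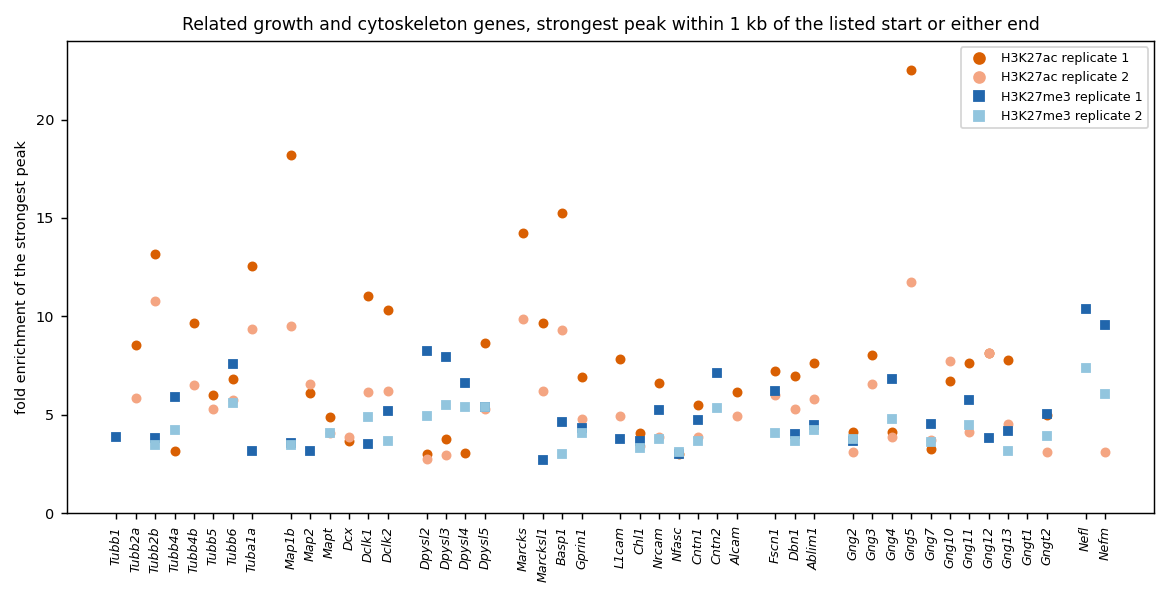
Fold enrichment of the strongest peak (vertical axis, linear) within 1 kb of a listed start or either gene end for 45 related genes grouped by family, with 1 point for each library and none where there was no peak. The neurofilament genes Nefl and Nefm have H3K27me3 up to 10.4, and Gng5 has the highest H3K27ac (22.5) without H3K27me3.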

How the data were processed

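Cells were fixed in 1% formaldehyde for 10 minutes, and 30 μg of chromatin met 4 μg of antibody, per the labels' protocols. The 4 peak lists hold 9 columns without a header, 1 list for each library. The submitters' processing notes name MACS2, Bowtie, Picard and fastp and the build GRCm38 (mm10). Tool versions are not given in the sources used here. For each peak the authors deposited a fold enrichment (a linear ratio to background), a −log10 p and a −log10 q. A score column, also deposited, is that −log10 q times 10 without its decimals.

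Genes and their positions came from RefSeq (GRCm38.p6). A mark was called present where peaks of both its libraries met the window by at least 1 bp, and replicated bases are those covered in both. Interval code (Python 3.11.15, numpy 2.4.6) was tested on simulated data. Genes were placed in 10 classes by length, and percentiles give the share of genes with a lower value. Counts of the 10 genes were set beside the same share over all 21887 protein-coding genes. No test was run, because 2 libraries of each mark and 1 condition allow none, and separate pools of mice are taken as the replicates. The labels do not say whether H3K27ac replicate 2 and H3K27me3 replicate 1, which share an input, came from the same pool.

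The 10 genes and the related and marker lists were chosen with earlier results of these data known. All 10 genes were named, related genes were named in list order with at most 4 of a family, and neighbours within 10 kb were named. Stricter peaks, other windows, 500 bp of cover and single libraries were tried. The input libraries were not analysed here, and 1 motif searched is not reported here.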

Additional observations from a re-analysis of the deposited data

How the results depend on the processing

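The strictness of the peaks was the choice that moved counts by more than 1.5 times. With peaks of −log10 q of 5 or more, H3K27me3 of both libraries was left at 0 of the 10 genes over the gene with 10 kb on each side (9 with all peaks) and at 0 at the start or ends (8 with all peaks), and both marks together at 0 in each window. The shares of all genes with H3K27me3 were then 6.44% and 4.35%. H3K27ac was left at 8 and 7 of the 10, against 55.5% and 46.5% of all genes. Of the 45 related genes, 23 then had H3K27ac at the start or ends (37 with all peaks) and 7 had H3K27me3 (28 with all peaks). Every other alternative tried (peaks of −log10 q of 2 or more, 500 bp of cover, a peak in either library, each library left out, other flanks and windows) kept the counts within 1.5 times. Leaving out a library gave 8 to 10 genes with H3K27me3 at the start or ends, against 29.3% to 43.1% of all genes. Lengths covered were less stable: 56 of 80 alternative values moved by more than 1 SD of the libraries, 49 of them upward. The direction was set by the rules and is not a result. Bases of 1 library, or of either, cannot be fewer than those common to both, and stricter peaks cannot add bases. An example is H3K27me3 at Stmn1, 0.535 kb in both libraries and 3.53 kb in replicate 1. Depth is unknown, so a missing peak, as in H3K27me3 replicate 2 of Gap43 and Stmn1, does not show that the mark was absent. No paired analysis was possible because no test was run and the shared input crosses the replicate numbers.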

Other observations

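Peaks that 1 list alone reported lay in short genes as well as long ones, and Gap43 and Ncam1 are given as examples. In Gap43, H3K27ac replicate 1 had 10 peaks and replicate 2 had 3, and the 6 peaks of replicate 1 without a partner had folds of 2.84 to 5.13. In Ncam1, H3K27me3 had 7 and 8 peaks, and replicated bases inside the gene were 243 bp at 21.4 kb from the lower-coordinate end and those near the higher end. Such unpaired peaks are left out of replicated lengths, but a gene with unpaired peaks of both libraries in its window still counts as carrying the mark there.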
